A study of Mus musculus with 54 samples.

Results

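*Avp* and *Avpr1a*, the genes of arginine vasopressin and of its V1a receptor, were followed over the day in the suprachiasmatic nucleus (SCN), a small nucleus of the hypothalamus that holds the main clock of the body. They were set by gene name, with earlier results of these data known, and are 2 of the 30031 genes in the deposited count table. The SCN was cut by laser from the brains of male C3H/HeH mice aged 10 to 12 weeks, kept under 12 hr of light and 12 hr of darkness with no other treatment. Zeitgeber time (ZT) counts hours from lights on, so that ZT2, ZT6 and ZT10 fell in the light and ZT14, ZT18 and ZT22 in the dark. Each of the 6 timepoints had 3 biological replicates, named A, B and C, each the pooled tissue of 5 mice. The RNA was amplified before each library was sequenced on 3 lanes. These pools are the replicates throughout, so the errors given are between pools and not between mice.

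Vasopressin is made as a precursor that also holds neurophysin II and copeptin, and it is stored in dense-core granules. In the SCN it is made mostly by neurons of the dorsal shell, where clock proteins drive its transcription through an E-box, and it also serves as an output signal of the clock. The V1a receptor couples through Gq/11 to phospholipase C and calcium release, and it is found on SCN neurons, so the peptide can act on the cells around those that release it.

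On GRCm38, *Avp* (ENSMUSG00000037727) lies on the minus strand at chr2:130580620-130582554. Its 3 exons make a transcript of 577 bases, and no other annotated gene overlaps it. *Avpr1a* (ENSMUSG00000020123) lies on the plus strand at chr10:122448499-122453452, with 2670 exonic bases. It overlaps 1 antisense gene, Gm48877, and since the sources used here do not say whether counting used strand, reads of the pair cannot be told apart. The 250 bases before the RefSeq start of each gene (GRCm38.p6) are shown because clock proteins are known to act on *Avp* through an E-box there. They are written in the direction of the gene, with the canonical E-box CACGTG and the E-box-like CACGTT in capitals.
Avp, chr2:130582589-130582838, minus strand: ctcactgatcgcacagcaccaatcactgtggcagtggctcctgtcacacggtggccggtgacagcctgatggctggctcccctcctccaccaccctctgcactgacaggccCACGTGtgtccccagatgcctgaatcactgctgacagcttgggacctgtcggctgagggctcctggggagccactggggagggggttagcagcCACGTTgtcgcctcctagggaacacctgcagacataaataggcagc
Avpr1a, chr10:122448249-122448498, plus strand: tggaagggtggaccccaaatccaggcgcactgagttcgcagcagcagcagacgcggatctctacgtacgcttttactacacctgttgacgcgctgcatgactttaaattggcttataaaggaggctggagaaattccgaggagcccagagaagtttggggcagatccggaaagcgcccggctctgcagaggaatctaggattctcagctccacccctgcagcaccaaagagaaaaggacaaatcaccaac

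The *Avp* stretch held CACGTG once, from 139 to 134 bases before the start, and CACGTT once, from 46 to 41 bases before it. Searched on both strands, 6.02% of 32851 promoter stretches of the same length held CACGTG and 3.85% held CACGTT. The *Avpr1a* stretch held neither. The cAMP response element TGACGTCA, in 1.55% of the stretches, and the D-box TTATGNAA, in 3.07%, were not in either of the 2 stretches. These matches describe letters in a short window and no binding was measured.

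The libraries held between 15412981 (ZT18 replicate C) and 35820945 reads on genes (median 25075231). The study describes its own plot as separating the libraries by timepoint and sequencing batch, and its text does not say which timepoints shared a batch. Here the libraries were grouped in 3 clusters, ZT2 with ZT22, ZT10 with ZT6 and ZT18 with ZT14. On the first 2 principal components of the 500 most variable genes the distances inside these clusters (1.74 to 34.1) overlapped with those between them (22.5 to 95.8), since ZT18 replicate C stood apart. It lay 22.5 from ZT10 replicate A and 26.1 from ZT18 replicate A, its nearest library in its own cluster, and the other 17 libraries were each nearest to one of their own. Some results that rest on ZT18 are therefore given with and without it, and the others, such as those of day against night, include it. The sample labels used here name no batch, and the paper held, from the timing of clock genes, that any sequencing batch effects were minimal. If the 3 clusters are taken as batches, timepoint and batch cannot be told apart between them. Only the 3 pairs inside a cluster are then free of this. Of the neuronal SCN markers, such as *Vip*, *Nms* and *Six6*, 10 of 10 were detected. Their summed level was between 1832 and 5320 CPM (reads scaled to the library's total, after TMM) per library. It was 4689 to 5320 at ZT6, 3938 to 4710 at ZT10 and 3209 to 4989 at ZT2. In the dark it was 1832 to 2493 at ZT14, 2523 to 2898 at ZT18 and 2751 to 3327 at ZT22. Detection alone does not set the SCN apart, since all listed telencephalic, oligodendrocyte, astrocyte, microglial and endothelial markers were detected as well. Markers of other cells moved over the day too. The summed CPM of 6 oligodendrocyte genes lay between 4716 and 6071 at ZT14 and ZT18, against 1267 to 3030 at ZT6 and ZT10, and that of 5 astrocyte genes was lowest at ZT10 (1268 to 1577) and highest at ZT2 (3174 to 3923). That of 5 genes of telencephalic excitatory neurons, which lie outside the SCN, was 13.7 to 19.8 at ZT6, 39.8 to 71.5 at ZT10, 99.4 to 208 at ZT14, 25.1 to 63.3 at ZT18, 56.5 to 229 at ZT22 and 40.1 to 81.9 at ZT2. The part of tissue composition in the results for *Avp* and *Avpr1a* was not tested. In pooled tissue, fewer cells of a type and less RNA per cell cannot be told apart.

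*Avp* had its highest level in the middle of the light phase and its lowest near the end of the dark phase. At ZT6 the 3 replicates held 478, 455 and 430 CPM, and at ZT10 they held 276, 278 and 410 CPM. At ZT14 the values were 56.2, 66.6 and 40.8 CPM, and at ZT18 they were 21.9, 23.6 and 28.9 CPM. At ZT22 they were 8.81, 3.12 and 4.19 CPM, and at ZT2 they were 8.09, 13.9 and 14.2 CPM. Every ZT6 and ZT10 library therefore lay above every other library, and the ranges of ZT14 and ZT18 did not overlap with each other or with those of ZT2 and ZT22. Only ZT22 and ZT2 overlapped, through ZT22 replicate A, which lay above ZT2 replicate A.

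In mean ± SD (n = 3), *Avp* stood at 454 ± 24.03 CPM at ZT6 and at 322 ± 76.8 CPM at ZT10. In the first part of the dark phase its means were 54.5 ± 12.98 CPM (ZT14) and 24.8 ± 3.68 CPM (ZT18), and the lowest were 12.1 ± 3.45 CPM (ZT2) and 5.37 ± 3.02 CPM (ZT22). The mean at ZT6 was 84.5-fold that at ZT22. In reads, this was 9078 to 11011 per library at ZT6 and 85 to 243 at ZT22. In order of reads among all genes of a library, *Avp* stood between places 298 and 338 at ZT6 and between places 9395 and 11640 at ZT22.

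*Avpr1a* varied less, and its highest levels came in the dark phase. At ZT2 the 3 replicates held 12.5, 14.2 and 8.98 CPM, at ZT6 they held 21.9, 12.3 and 20.3 CPM, and at ZT10 they held 24.5, 18.3 and 25.5 CPM. At ZT14 the values were 41.6, 36.5 and 35.4 CPM, and at ZT22 they were 37.2, 18.1 and 20.7 CPM. At ZT18, replicates A and B held 60.2 and 53.0 CPM and replicate C held 14.5 CPM. Replicates A and B of ZT18 were the highest of all 18 libraries, whereas replicate C lay within the range of ZT6. All 3 libraries of ZT14 lay above all 9 of the light phase.

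The means of *Avpr1a* were, in descending order, 42.5 ± 24.6 CPM (ZT18), 37.8 ± 3.30 (ZT14), 25.3 ± 10.4 (ZT22), 22.8 ± 3.92 (ZT10), 18.1 ± 5.15 (ZT6) and 11.9 ± 2.65 (ZT2), each with its SD (n = 3). Neighbours in this order differed by less than the larger of their SDs, except ZT14 over ZT22 and ZT6 over ZT2. The highest mean was 3.58-fold the lowest. ZT18 replicate C had 237 *Avpr1a* reads, against 1881 and 1649 in the other replicates of that timepoint. It also had the smallest total of all libraries. Without it, the mean at ZT18 was 56.6 CPM.

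**Figure D1:**
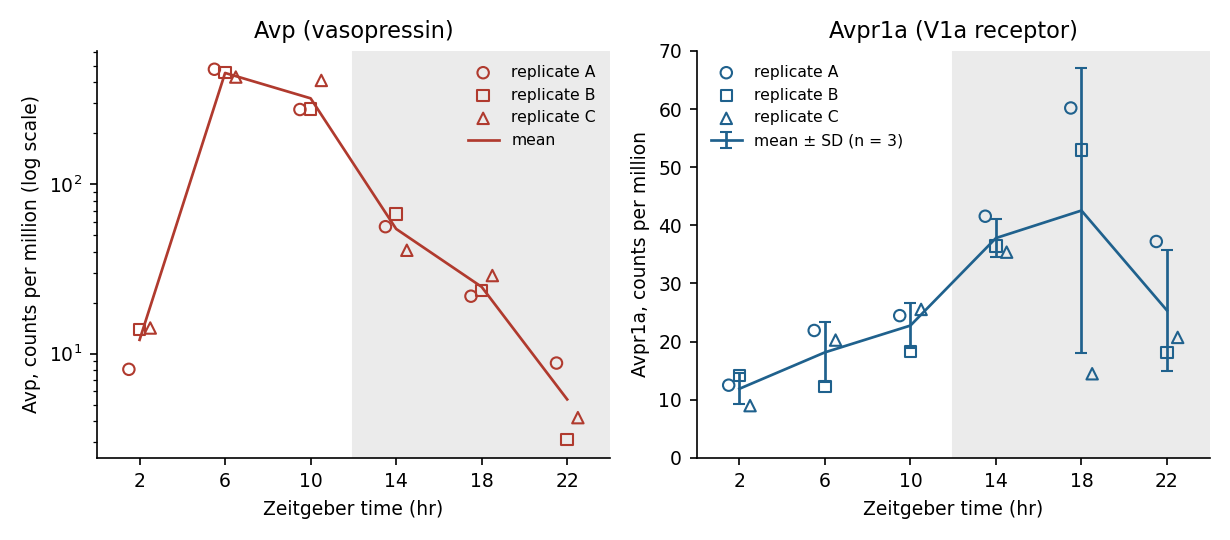
CPM of *Avp* (left, log axis, line through the means) and of *Avpr1a* (right, linear axis, mean ± SD, n = 3) against Zeitgeber time in hours, with each replicate as a symbol and the dark phase shaded. *Avp* drops from 454 CPM at ZT6 to 5.37 at ZT22, while *Avpr1a* is highest at ZT18 apart from replicate C at 14.5 CPM.

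Both genes changed over the 6 timepoints, as did 44.0% of the 18941 genes tested. The test was edgeR's quasi-likelihood test with Benjamini-Hochberg adjustment over all tested genes, and q below is its adjusted p. For *Avp* q was 3.2e-10, and its log2 range between timepoint means, 6.52, was number 32 among the tested genes. For *Avpr1a* q was 0.0104 and the log2 range was 1.69, at place 9015. When each replicate was left out in turn, the q of *Avpr1a* lay between 0.000152, reached without ZT18 replicate C, and 0.0429. JTK_CYCLE, a rank test for a 24 hr rhythm over 6 possible peaks, gave p = 0.000147 for *Avp* with a best peak at ZT10, by the exact null distribution. For *Avpr1a* the exact p was 0.0130, with a best peak at ZT14. Of all tested genes, 37.4% passed JTK_CYCLE at the same threshold, and with the exact p adjusted over genes as well *Avpr1a* missed it (adjusted p = 0.0528).

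Compared between pairs of timepoints, *Avp* differed in 12 of the 15 pairs and *Avpr1a* in 3. The 12 pairs of *Avp* were all those between clusters, with q between 1.9e-09 and 0.0229. The smallest of these log2 differences was that of ZT18 over ZT2, a pair in which the means were 24.8 and 12.1 CPM and which missed the threshold without ZT2 replicate A (edgeR q = 0.110) or ZT18 replicate C (0.0670), and the largest was that of ZT6 over ZT22, 6.40 ± 0.38 (SE). Among all tested genes, the share that passed between clusters was 33.8% for ZT2 against ZT6, 29.0% for ZT2 against ZT10, 23.8% for ZT2 against ZT14 and 22.0% for ZT2 against ZT18. It was 23.3% for ZT6 against ZT14, 20.7% for ZT6 against ZT18 and 32.5% for ZT6 against ZT22. For ZT10 it was 16.8% against ZT14, 12.8% against ZT18 and 26.4% against ZT22, and for ZT22 it was 19.1% against ZT14 and 18.1% against ZT18.

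*Avpr1a* was higher at ZT14 than at ZT2 (log2 difference ZT2 minus ZT14 -1.67 ± 0.41 SE, q = 0.00615) and higher at ZT18 than at ZT2 (-1.84 ± 0.41, q = 0.00364), by edgeR. It was also higher at ZT18 than at ZT6 (ZT6 minus ZT18 -1.23 ± 0.41, edgeR q = 0.0397), although the ranges of these 2 timepoints overlapped through ZT18 replicate C. Without that library 7 pairs passed the threshold. The call of ZT6 against ZT18 was lost with DESeq2 size factors (edgeR q = 0.0508), with upper-quartile factors (0.0595), on the reads recovered from the normalized table (0.0571), and without ZT6 replicate B or C, ZT14 replicate A, or ZT18 replicate A or B (0.0502 to 0.165), which left 2 pairs. All 3 pairs cross clusters.

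**Figure D2:**
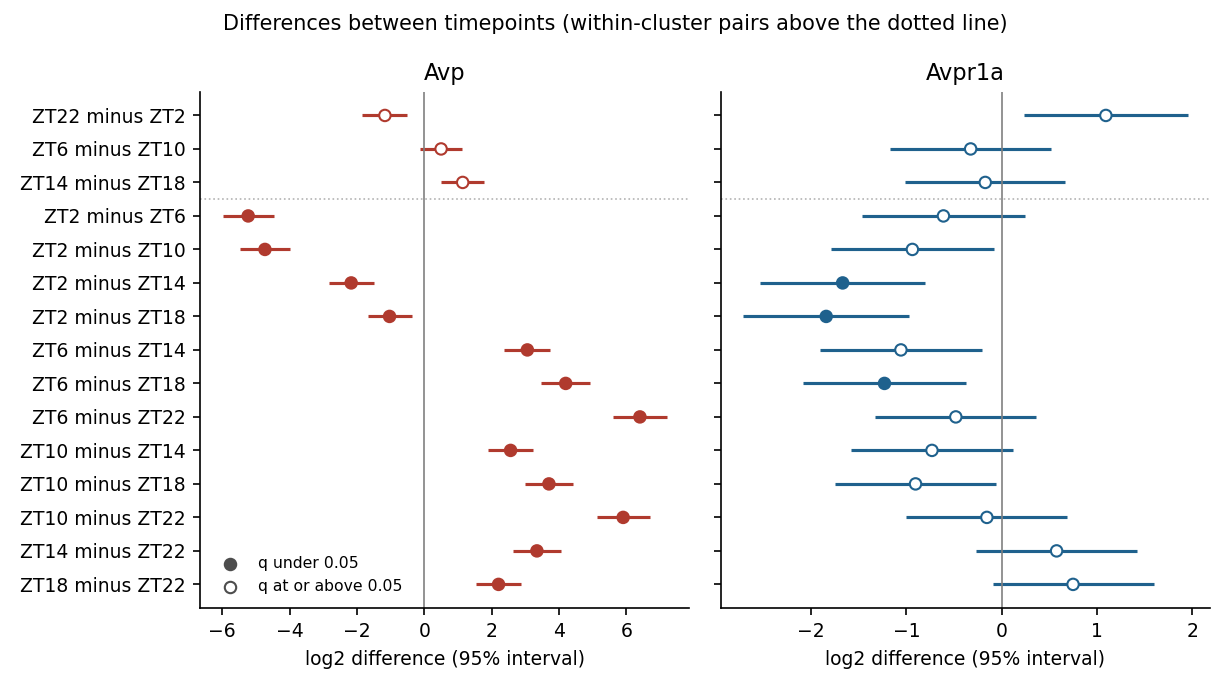
Log2 differences between timepoints with 95% intervals for *Avp* (left) and *Avpr1a* (right), filled where q was under 0.05 and with the 3 pairs inside a cluster above the dotted line. All 12 pairs of *Avp* between clusters are filled and the 3 inside are open, and for *Avpr1a* 3 pairs are filled.

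Inside the clusters, where batch does not separate the timepoints if the clusters are the batches, no difference of either gene passed the threshold over all genes. *Avp* was 2.20-fold as high at ZT14 as at ZT18, with no overlap of the replicates (log2 difference 1.14, 95% interval 0.49 to 1.78, unadjusted p = 0.00162, edgeR q = 0.0952), and 0.57% of tested genes passed there. Without ZT18 replicate C the log2 difference was 1.26 (edgeR q = 0.153), and without ZT22 replicate A it passed the threshold (q = 0.0351). *Avp* was 2.25-fold as high at ZT2 as at ZT22 (ZT22 minus ZT2 -1.17, -1.84 to -0.50, unadjusted p = 0.00174, edgeR q = 0.734), where 0.0317% of genes passed. ZT6 exceeded ZT10 by 0.50 on the log2 scale (-0.13 to 1.13, unadjusted p = 0.115, edgeR q = 0.556), where 0.0475% passed. A joint test of the 3 pairs gave *Avp* an unadjusted p of 0.000438 and an edgeR q of 0.0838, which 0.116% of genes passed at 0.05. DESeq2 passed *Avp* in that joint test (adjusted p = 0.000516) and for ZT14 against ZT18 (adjusted p = 0.0175). It did not pass *Avp* for ZT22 against ZT2 (adjusted p = 0.0799). The call of ZT14 against ZT18 and that of the joint test thus depended on the tool. The telencephalic genes also moved inside clusters, with higher sums in all 3 libraries of ZT14 than in those of ZT18 and in those of ZT10 than in those of ZT6, and *Slc17a7*, the vesicular glutamate transporter among them, passed the joint test (edgeR q = 0.0343). Their part in the differences of *Avp* and *Avpr1a* inside clusters was not tested.

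For *Avpr1a*, ZT22 exceeded ZT2 by 1.09 on the log2 scale without overlap of the replicates (95% interval 0.24 to 1.95, unadjusted p = 0.0154, edgeR q = 1). Over that pair the members moved in opposite directions in their estimates, *Avp* being lower at ZT22 and *Avpr1a* higher. ZT14 and ZT18 differed by -0.17 (-1.01 to 0.67, edgeR q = 0.921), or by -0.58 without ZT18 replicate C (edgeR q = 0.508), and the sign turned when ZT18 replicate A or B was left out. ZT6 and ZT10 differed by -0.33 (-1.17 to 0.52, edgeR q = 0.803). The joint edgeR q was 0.483.

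Taking the 9 libraries of the light phase against the 9 of the dark phase, *Avp* was 6.24-fold higher by day (log2 difference 2.64 ± 0.19 SE, edgeR q = 5.2e-08) and *Avpr1a* was 2.03-fold higher by night (day minus night -1.02 ± 0.23 SE, edgeR q = 0.00426). Of all tested genes, 23.8% passed this comparison. Light and dark libraries overlapped in both genes. For *Avp* this was because ZT2, in the light, lay below ZT14 and ZT18.

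The balance of ligand to receptor transcripts was therefore followed in each library as the log2 ratio of their CPM (prior count 2, not corrected for length). It was 4.44, 5.21 and 4.40 at ZT6 and 3.49, 3.92 and 4.002 at ZT10. It was 0.43, 0.87 and 0.21 at ZT14, -1.46, -1.16 and 1.00 at ZT18, and -2.07, -2.51 and -2.28 at ZT22. At ZT2 it was back at -0.62, -0.02 and 0.65. The 3 ZT22 libraries had the lowest ratios of all 18, and ZT18 replicate C had the highest of the dark phase. The mean was 2.83 ± 2.19 in the light and -0.78 ± 1.41 in the dark (SD, n = 9), a difference of 3.61 (exact permutation test over 48620 arrangements, two-sided p = 0.00173). The arrangements treat the 18 libraries as exchangeable, although those of a timepoint share time of day and may share batch. This p takes no account of that grouping. The difference follows from the opposite day and night differences of the 2 genes given above, so it is not separate support for them. The light and dark ratios overlapped, through ZT2.

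Different genes were compared per kilobase of exon, with the length taken as all annotated exon bases of a gene. The transcripts present may be shorter, so these comparisons between genes are rough. On this scale *Avp* transcripts stood at 787 ± 41.7 CPM per kb at ZT6 and *Avpr1a* transcripts at 6.80 ± 1.93, a ratio of 116. At ZT22 the levels were 9.31 ± 5.23 and 9.49 ± 3.88 CPM per kb, a ratio of 0.981. On the same scale at ZT6, *Vip*, the peptide of the light-receiving core of the SCN, stood at 810 ± 132 CPM per kb. *Nms* (neuromedin S) stood at 334 ± 69.9, *Grp* (gastrin-releasing peptide, also of the core) at 255 ± 13.1 and *Prok2* (prokineticin 2, an output signal of the SCN) at 124 ± 52.1. In the count table *Avp* and *Vip* thus differed by less than the SD at ZT6. On the reads recovered from the normalized values, described below, *Avp* at ZT6 was at 355 CPM in place of 454. *Avpr1a* at ZT6 was at 18.7 CPM on those reads in place of 18.1, so the ratio of 116 would be lower on them. The comparison of *Avp* with *Vip* was not repeated on them. At ZT22 *Vip* still stood at 485 ± 59.8 CPM per kb, *Nms* at 220 ± 28.1 and *Grp* at 26.5 ± 9.66, all above *Avp*, while *Prok2* stood at 4.39 ± 2.75.

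*Oxt*, the gene of oxytocin, is the paralogue and neighbour of *Avp*. It lies tail to tail with it, with 3565 bases between them, at chr2:130576173-130577054. It marks magnocellular neurons of the paraventricular and supraoptic nuclei, which also make vasopressin and lie outside the SCN. *Oxt* was at 0.113 to 0.258 CPM at ZT2, 1.43 to 2.52 at ZT10, 0.809 to 2.03 at ZT14 and 0.0725 to 0.215 at ZT22. At ZT6 it was at 2.08, 26.5 and 4.64 CPM, and at ZT18 at 3.94, 9.51 and 0.0610 CPM. Single libraries thus stood far from their fellows. ZT6 replicate B had 560 *Oxt* reads, against 48 and 98 in replicates A and C of that timepoint. ZT18 replicate C had 1, against 123 and 296 in replicates A and B. *Oxt* changed over time (edgeR q = 0.0012), and the joint test inside clusters gave an edgeR q of 0.483.

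Relative to *Avp*, *Oxt* came to between 0.436% and 5.82% of its CPM at ZT6, to 18.0% and 40.3% in ZT18 replicates A and B, and to 0.211% in ZT18 replicate C. *Avp* was no lower in that last library (28.9 CPM) than in the other replicates of ZT18 (21.9 and 23.6 CPM). ZT6 replicate A had 478 CPM of *Avp* with 2.08 CPM of *Oxt*, and ZT6 replicate B had 455 CPM with 26.5 CPM. Whether tissue of the paraventricular and supraoptic nuclei added to the *Avp* level was not tested. Of the other markers of those nuclei, *Crh* averaged 0.341 CPM and *Sim1* 0.264 CPM over the libraries, *Otp* had 4 reads in all, and *Trh*, which other hypothalamic neurons also make, ranged in its means from 11.1 CPM at ZT6 to 45.4 at ZT18. The summed level of the 4 tested markers was between 8.69 and 78.5 CPM per library, highest at ZT18.

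The transcripts of *Avp* and *Oxt* share an identical run of 127 bases, 125 of them in exon 2 of *Avp*, which codes for the conserved part of neurophysin. A read that lies wholly within it cannot be assigned to one gene, and of the 528 windows of 50 bases in the *Avp* transcript 78 were also in *Oxt*. No window of that length was shared by *Avpr1a* with *Avpr1b*, *Avpr2* or *Oxtr*, whose longest runs in common with it were 17, 12 and 23 bases.

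**Figure D3:**
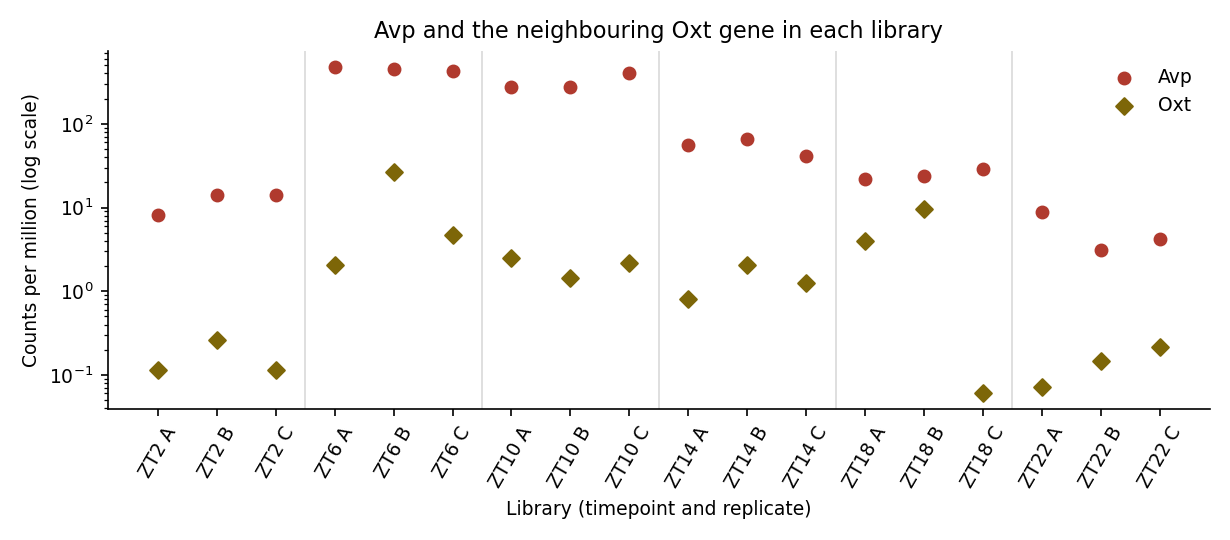
CPM on a log axis of *Avp* (circles) and *Oxt* (diamonds) in each of the 18 libraries, ordered by timepoint and replicate. *Avp* lies above *Oxt* in every library, and the gap is narrowest in ZT18 replicate B, where *Oxt* is 40.3% of *Avp*.

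The other receptors of the family were scarce. *Avpr1b*, the V1b receptor of the pituitary and of hippocampal area CA2, had 50 reads in all, of which 11 and 32 were in ZT22 replicates B and C, and 0 reads in 12 of 18 libraries, so it was not tested. *Avpr2*, the receptor of the kidney, averaged at most 0.255 CPM at any timepoint (edgeR q = 0.497). *Oxtr*, the oxytocin receptor, which also binds vasopressin, had means from 2.71 ± 2.58 CPM at ZT18 to 7.65 ± 0.779 at ZT10 (edgeR q = 0.866). Of the 3 receptors tested, *Avpr1a* was the 1 that passed the test of time.

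A list of 37 genes around vasopressin, from its processing and release to the coupling and desensitisation of its receptor, was read next. Besides the members themselves 34 were tested, and 25 of them (73.5%) changed over time, against 44.0% of all genes tested. The list was drawn up with earlier results of these data known, so the share is a description. Within clusters 1 of the 34 passed the joint test, *Dbp*, against 0.116% of all genes. Of the 25, 6 had their highest mean at ZT6 and 3 at ZT10, 6 at ZT14 and 2 at ZT18, 3 at ZT22 and 5 at ZT2, so the list did not share one phase.

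Among the 6 genes of peptide processing, 5 changed. *Pcsk1n* (proSAAS, an inhibitor of prohormone convertase 1) was at 205 ± 10.4 CPM at ZT6 and 6.49 ± 0.830 at ZT2, the widest range of the group (edgeR q = 3.1e-12). *Pam*, which amidates peptides such as vasopressin, had its highest mean at ZT6 (653 ± 204 CPM) and its lowest at ZT22 (104 ± 34.5 CPM). *Pcsk1*, the convertase itself, was highest at ZT2 (115 ± 41.4 CPM) and lowest at ZT18 (27.1 ± 10.99), and *Cpe* and *Scg5* changed by less than 1.5-fold. *Pcsk2* did not pass the test (edgeR q = 0.288).

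All 7 genes of the granule and its release changed. *Chga* (chromogranin A, a core protein of dense-core granules) was at 659 ± 173 CPM at ZT10 and 24.5 ± 7.36 at ZT22. *Vgf*, a granule peptide precursor, was at 200 ± 21.9 CPM at ZT6 and 22.7 ± 6.28 at ZT22. Both had their highest means in the same cluster as *Avp* and their lowest at the same timepoint. *Scg2* (secretogranin II) and the priming factors *Cadps* and *Cadps2* ran otherwise, with their highest means at ZT2 (7931 ± 2004, 169 ± 9.71 and 327 ± 76.7 CPM).

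On the receptor side, 3 of 7 coupling genes and 4 of 6 desensitisation genes changed. *Gnaq* and *Plcb1*, the Gq subunit and a phospholipase C it activates, were highest at ZT22 (557 ± 110 and 111 ± 30.2 CPM), and *Gna11* was highest at ZT14 (277 ± 22.4 CPM). *Grk2* and *Arrb1*, a receptor kinase and an arrestin, were highest at ZT14 (95.6 ± 0.638 and 136 ± 4.04 CPM), and *Grk5* and *Grk6* at ZT18 (10.3 ± 3.84 and 29.8 ± 6.51 CPM), the cluster in which *Avpr1a* was highest. *Lnpep*, the aminopeptidase that breaks down vasopressin and oxytocin, was highest at ZT14 too (31.8 ± 3.47 CPM) and lowest at ZT10 (10.3 ± 0.418).

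All 4 listed regulators of *Avp* transcription changed. *Dbp*, a D-box factor, was at 105 ± 4.76 CPM at ZT6 and 12.9 ± 2.93 at ZT18. *Creb3l1*, a factor known to act on the *Avp* promoter in magnocellular neurons, was at 77.1 ± 2.56 CPM at ZT10 and 6.00 ± 1.31 at ZT22. *Arntl*, whose product binds E-boxes together with that of *Clock*, was highest at ZT14 (51.9 ± 17.9 CPM) and lowest at ZT6 (22.8 ± 1.32), and *Clock* was highest at ZT2 (73.7 ± 25.5 CPM).

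**Figure D4:**
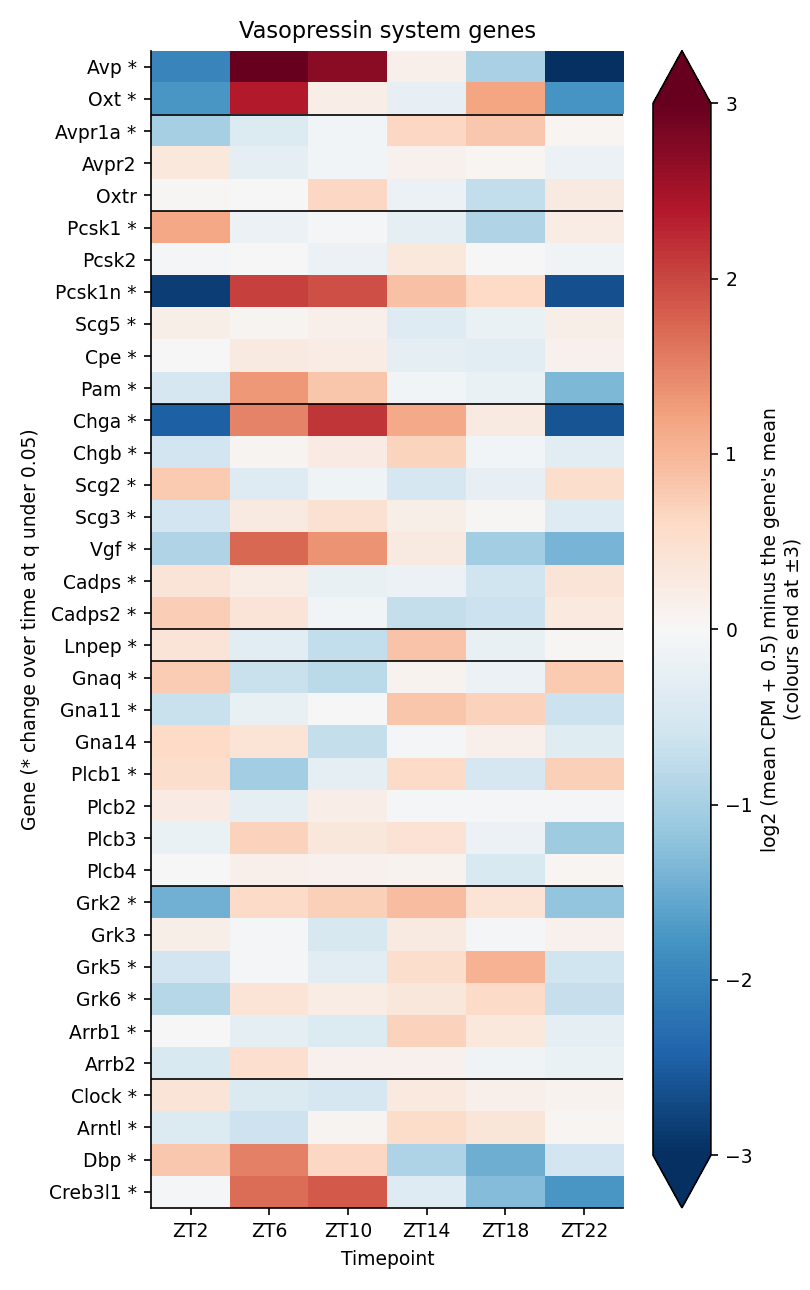
Mean level of each tested gene of the list at the 6 timepoints, as log2 (CPM + 0.5) minus the mean over timepoints, with lines between roles and an asterisk for a change over time at q under 0.05. *Avp*, *Pcsk1n*, *Chga*, *Vgf* and *Creb3l1* share high ZT6 and ZT10 and low ZT22, whereas *Avpr1a* is high at ZT14 and ZT18.

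The genes whose course was most like that of *Avp* over the 18 libraries were *Jund*, an AP-1 transcription factor (Pearson's r = 0.977 of log2 CPM), *Cacna1g*, a T-type calcium channel (0.968), *Rexo2*, an RNA exonuclease (0.962), *Ppp1r1a*, an inhibitor of protein phosphatase 1 (0.960), and *Irf2bp1*, a corepressor (0.959). They were ranked among 9609 genes with a mean of at least 10 CPM. The libraries of a timepoint share time of day and may share batch. Once the timepoint means were taken off, the correlations were 0.25, 0.53, -0.36, 0.14 and 0.09. Between its highest and lowest means *Ppp1r1a* fell from 474 CPM (ZT10) to 30.5 CPM (ZT22) and *Cacna1g* from 67.4 CPM (ZT6) to 9.75 CPM (ZT22).

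For *Avpr1a* they were *Dhx37*, an RNA helicase (r = 0.872), *Akap2*, an anchor of protein kinase A (0.836), *Copb1*, a coatomer subunit (0.836), *Rnf123*, a ubiquitin ligase (0.829), and *Wdr77*, a partner of the methyltransferase PRMT5 (0.827). With the timepoint means taken off, r was 0.93, 0.64, 0.71, 0.74 and 0.87. Part of this rested on ZT18 replicate C, since without that library the values were 0.81, -0.19, 0.60, 0.21 and 0.61. The genes were picked by their correlation over the same libraries, which includes these deviations. The values therefore cannot show that the genes followed *Avpr1a* among replicates of a timepoint. These correlations are descriptions and were not tested. By Spearman's rank correlation 1 of the 5 nearest genes was the same for each member.

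The deposited normalized values gave a second set of reads. For ZT2, ZT14, ZT18 and ZT22 they held 100% to 100.1% of the *Avp* reads of the count table, and exactly its *Avpr1a* reads. At ZT6 and ZT10 they held fewer. *Avp* came to 65.9%, 70.5% and 75.5% of its counted reads at ZT6 and to 63.0%, 71.5% and 56.6% at ZT10. In log2 terms these were -0.82 to -0.41, against a median over genes of -0.14 to -0.12, whereas *Avpr1a* was at -0.18 to -0.08. On those reads *Avp* was at 355 ± 5.99 CPM at ZT6 and 226 ± 30.2 at ZT10 (SD, n = 3), and its ZT6 to ZT22 log2 difference was 6.12 ± 0.36 (SE). The order of its timepoints and the 12 of 15 pairs past the threshold were as in the count table, whereas *Avpr1a* passed in 2 pairs in place of 3. The height of the *Avp* peak therefore depended on the table, and what set the tables apart was not tested.

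**Figure D5:**
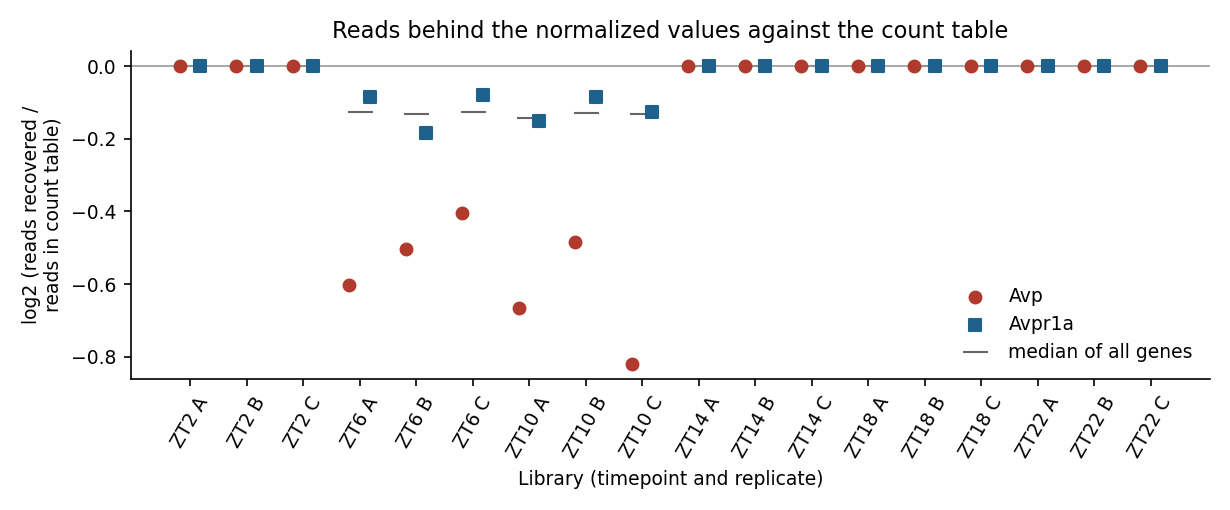
Log2 ratio of the reads recovered from the normalized values to the reads of the count table, for *Avp* (circles), *Avpr1a* (squares) and the median of all genes (dashes), in each library. The ratio is at or next to 0 in the 12 libraries of ZT2, ZT14, ZT18 and ZT22, and *Avp* lies below the median in all 6 libraries of ZT6 and ZT10.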

How the data were processed

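RNA from 18 pools of laser-captured SCN tissue was measured, with 3 lanes per pool (54 lane samples). The authors trimmed and filtered reads, aligned them with GSNAP to mm10/GRCm38 and counted them per Ensembl gene with HTSeq 0.5.4p1. The deposited count table gives unnormalized reads per gene, lanes combined. Its header is shifted by 1 cell and was read as the names of the 18 count columns. The second deposited table gives normalized signal, which the authors' methods name as counts scaled with DESeq2. All of its values (100%, tolerance 1e-06) were whole multiples of 1 step per column, so reads were recovered from it as an alternative, and edgeR on them called 9367 genes. Sources used here do not state strand or how multiply placed reads were counted.

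Tests covered the 18941 genes that had 1 read or more in over 6 replicates. edgeR 4.0.16 in R 4.3.3 fitted all 18 replicates with a mean per timepoint, after TMM scaling, and gave quasi-likelihood tests of time, of all 15 pairs, of day against night and of the 3 pairs inside clusters jointly, adjusted by Benjamini-Hochberg and called at 0.05. DESeq2 1.42.0 and limma 3.58.1 (cosinor regression) were alternatives. JTK_CYCLE was rewritten in Python 3.11.15 with numpy 2.4.6 and scipy 1.17.1, with a Bonferroni factor of 6 over lags. Scripts were tested on simulated data. Other alternatives were scaling by DESeq2 size factors, upper quartiles or library totals, filters of 10 counts in every replicate or 1 read in any, a replicate block, other prior counts (0.5 and 8) and leaving out each replicate. The *Avp* levels on recovered reads and the correlations without ZT18 replicate C were added after seeing the data. Genes named are the members, the 5 genes with the highest Pearson's r with each member (mean of at least 10 CPM), the listed vasopressin genes, the cell type markers and 4 other SCN peptides. The members and lists were chosen with earlier results of these data known. Of the listed marker genes, *Otp* was too low to test, and *Kiss1* and *Th* were not analysed here. Sequences are from RefSeq (GRCm38.p6) and gene positions from GENCODE M21. Nothing in the labels ties the pools of different timepoints to each other. The p-values of edgeR and DESeq2 set differences against the spread between pools of a timepoint. JTK_CYCLE and the permutation test treat all 18 replicates as exchangeable.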

Additional observations from a re-analysis of the deposited data

How the results depend on the processing

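Across 145 results under settings other than leaving out a library, 138 kept their direction and side of the threshold or stayed within 1.5-fold (counts) or 1 SD (levels). The joint test of *Avp* inside the clusters (edgeR q = 0.0838) passed the threshold with DESeq2 (adjusted p = 0.000516). In edgeR it passed with at least 10 counts in every replicate (q = 0.0455) and with 1 read in any (q = 0.0200). ZT14 minus ZT18 of *Avp* passed with DESeq2 (log2 difference 1.10, adjusted p = 0.0175). *Avpr1a* missed JTK_CYCLE after adjustment over genes (0.0528). On recovered reads *Avp* moved to 355 CPM at ZT6 and 226 at ZT10. The cause was not tested.

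Leaving out each library in turn gave a joint q of *Avp* between 0.0102 (without ZT22 replicate A) and 0.240. The log2 difference ZT14 minus ZT18 of *Avp* lay between 0.97 and 1.31, and it passed the threshold without ZT22 replicate A. ZT14 minus ZT18 of *Avpr1a* lay between -0.58 and 0.16, and its pairs called between 2 and 7, the 7 without ZT18 replicate C. The pairs of *Avp* called lay between 11 (without ZT2 replicate A or ZT18 replicate C) and 13 (without ZT22 replicate A).

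Replicate letters did not pair the libraries: of 45 same-letter pairs, 1 had deviations correlated above 0.1. With a replicate block the time test gave q = 8.0e-09 for *Avp* and 0.0114 for *Avpr1a*, 7847 genes in place of 8343 changed over time, and no call of the members changed. DESeq2 called 9985 genes. With 3 pools a timepoint and 85 to 243 *Avp* reads at ZT22, its level there had an SD of 3.02 on a mean of 5.37 CPM.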
